A study of Bos taurus with 20 samples.

Results

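The genes described here build the keratin filaments of epithelial cells and the junctions that hold these cells together: keratins, claudins and other tight junction proteins, desmosomal proteins, connexins, E-cadherin (CDH1) and EPCAM. A probe set, the group of probes that reports 1 transcript on the array, was a member if its single gene symbol in the array's annotation began with KRT, CLDN, DSC, DSG, TJP, PKP, GJA, GJB or GJC followed by a digit, or was CDH1, EPCAM, JUP, F11R or CGN. OCLN and DSP were in the rule as well, but no probe set carries either as its single symbol here. The rule gave 79 probe sets of 53 gene symbols, out of 24016 probe sets that are no controls. It uses gene symbols and no measured values, though it was chosen with earlier results of these data known.

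The 20 arrays come from the 4 glands of each of 5 Holstein Friesian cows in mid lactation, 1 array per gland. The right front gland was not challenged (NC), and the other glands of the same udder received 100 cfu of a cefapirin-susceptible E. coli mastitis strain through the teat canal. The left front gland was left untreated (CNT). One rear gland was infused with 300 mg of cefapirin (CF), a cephalosporin antibiotic, and the other with the same dose of cefapirin plus 20 mg of prednisolone (CFPD), a synthetic glucocorticoid. Cows 4 and 5 were sampled at 24 h, after infusions at 4 and 12 h, and cows 1, 2 and 3 at 48 h, after further infusions at 24 and 36 h. There were thus 2 arrays of each group at 24 h and 3 at 48 h, and each value below is a log2 signal, on which a difference of 1 is a 2-fold difference. The NC gland shared its cow with 3 challenged glands. NC glands were all right front and CNT glands all left front, so side and challenge cannot be told apart between these groups. Treated glands were all rear glands, so position and treatment cannot be told apart where they are set against NC or CNT glands. The labels place the tissue in the cisternal region of the gland, while the methods of the study describe parenchyma.

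In cows 2 and 5 the labels give CF and CFPD to the rear glands the other way round than in cows 1, 3 and 4. The methods of the study name no fixed side for either treatment. Whether this was the design or an exchange of labels is not settled by the labels or the array values. All values here follow the deposited labels, and a call that changes with the exchange is given beside its result. The CNT gland of cow 2 stands apart from the other arrays: it held the highest of all 20 values for 17.0% of the probe sets and the lowest for 22.1%. Array medians lay between 7.12 and 7.31. The 8 milk protein genes averaged between 14.83 and 15.26 in each array, so RNA of these genes was present throughout. These values do not tell the cisternal region from the parenchyma, and which of them was sampled was not tested.

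Keratins form the intermediate filaments of epithelial cells, and luminal cells of the mammary gland carry simple epithelial keratins while the basal, contractile cells carry KRT5 and KRT14. Tight junctions, sealed by claudins and anchored by the TJP proteins, close the space between secretory cells during lactation and keep milk and blood components apart. Desmosomes tie the keratin filaments of neighbouring cells together through cadherins (DSC, DSG) and plaque proteins (JUP, PKP), CDH1 carries the adherens junction, and connexins (GJA, GJB, GJC) form the channels of gap junctions.

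Of the 79 probe sets, 36 of 32 symbols passed the filter on low signals at 24 h or 48 h, 34 of them at both times. The other 43 probe sets had mean signals between 2.90 and 6.86 and were not tested, and 21 symbols had no tested probe set. Among the untested were the single probe set of KRT8, the partner of KRT18 in luminal cells, at 5.51 to 7.54, both probe sets of the scaffold protein TJP1, and all probe sets of DSC1, DSC3 and DSG1. Tested were 3 of 7 probe sets of simple epithelial keratins, 3 of 5 of basal keratins (KRT5, KRT14 and KRT15), 1 of 2 of activation keratins, which rise in stressed epidermis, 2 of 12 of other keratins, 9 of 19 of claudins, 5 of 8 of other tight junction proteins, 1 of 6 of desmosomal cadherins, 5 of 6 of desmosomal plaque proteins, 4 of 11 of connexins and all 3 of CDH1 and EPCAM.

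At 24 h KRT19 and the desmosomal plaque protein PKP2 were called lower in CNT than in NC glands. At 48 h this held for 1 of 2 tested probe sets of TJP3, a scaffold protein of tight junctions. No member passed the test in the other direction at either time. A probe set was called at an adjusted p under 0.05 in limma and a log2 difference of at least 1 in size. At 24 h 2 of 35 members were called, or 5.71%, beside 2.39% of all 13004 probe sets tested, and 0.769% of all probe sets were called lower and 1.62% higher. At 48 h 1 of 35 was called, or 2.86%, beside 2.66% of 13000, with 0.515% called lower and 2.15% higher. In an array of whole tissue, fewer cells of a type and less RNA per cell cannot be told apart.

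The members as a whole lay slightly lower in CNT than in NC glands at 24 h. Their median log2 difference was -0.21 beside -0.0056 over all probe sets, and 25 of 35 were negative. The CF and CFPD glands of that time leaned the same way against NC glands, each with a median of -0.26. CNT and NC values did not overlap in 13 members that were lower and 2 that were higher. Those are 37.1% and 5.71% of the members, beside 26% and 26.3% of all probe sets. At 48 h the median was 0.21 beside 0.13, with 13 of 35 negative. The groups did not overlap in 4 members that were lower and 3 that were higher, or 11.4% and 8.57%, beside 9.07% and 21.6% of all probe sets. Without the CNT gland of cow 2 the median was -0.02 beside 0.11, with 18 of 35 negative.

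**Figure D1:**
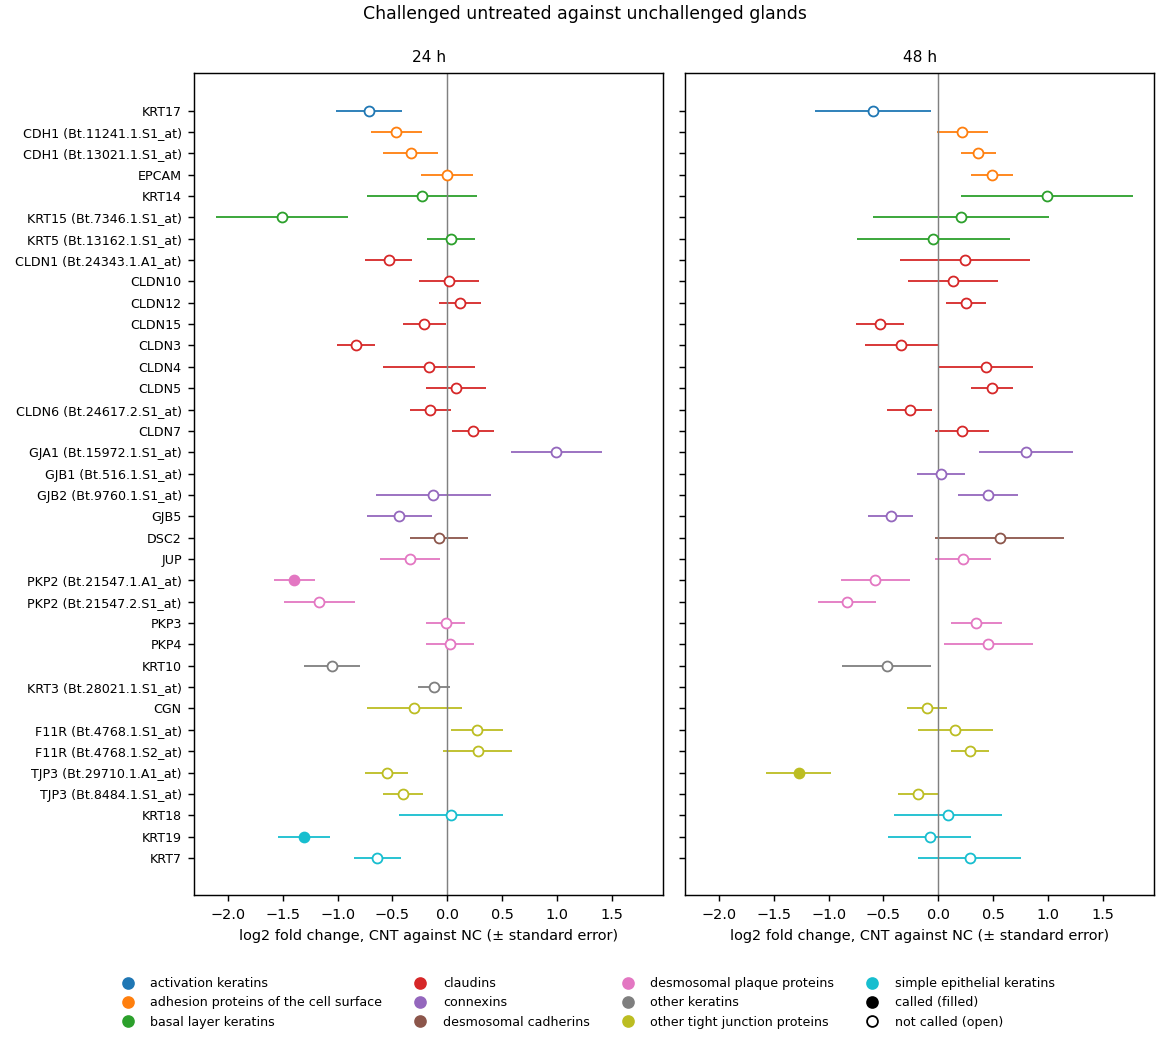
Log2 difference between CNT and NC glands for the 36 tested keratin and junction probe sets (rows, coloured by role) at 24 h (left) and 48 h (right). Points are fitted differences, bars standard errors, and filled points passed the test: PKP2 and KRT19 at 24 h and TJP3 at 48 h, each below 0; rows without a point were not tested at that time.

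Among simple epithelial keratins, KRT19, a keratin of ducts and secretory epithelium, was called lower in CNT than in NC glands at 24 h. It measured 14.64 and 14.31 in the NC glands of cows 4 and 5, and 13.32 and 13.02 in their CNT glands. CF glands measured 14.27 and 14.13 and CFPD glands 14.48 and 13.91, so both CNT glands lay below the 6 other glands of that time. The CNT mean of 13.17 ± 0.21 (SD, n = 2) was 2.47-fold below the NC mean of 14.48 ± 0.23 (SD, n = 2), a log2 difference of -1.31 (SE 0.24, adjusted p = 0.0419). This call was lost without either NC, CNT or CF gland, with adjusted p between 0.0729 and 0.204, and in a joint fit of all 20 arrays (adjusted p = 0.111). It was also lost without the glands of cow 4 or cow 5 (adjusted p = 0.879 and 0.501).

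At 48 h no such separation of KRT19 was seen. The NC glands of cows 1, 2 and 3 measured 12.93, 13.71 and 14.22 and the CNT glands 13.35, 13.79 and 13.49. The CNT gland was higher than the NC gland in cows 1 and 2 and lower in cow 3, and the log2 difference was -0.08 (SE 0.38, adjusted p = 0.921).

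KRT18, the filament partner of KRT8, measured 10.02 and 9.11 in NC and 9.61 and 9.60 in CNT glands at 24 h. At 48 h NC glands measured 10.32, 10.97 and 11.07 and CNT glands 10.27, 12.00 and 10.37. The groups overlapped at both times, and the log2 differences were 0.03 (SE 0.47) and 0.09 (SE 0.49). KRT7, a further luminal keratin, had a difference of -0.64 (SE 0.22, adjusted p = 0.162) at 24 h and of 0.29 (SE 0.47) at 48 h; it is named after its values were seen, as are KRT15, CLDN1, CLDN3, CLDN10, CLDN11 and the second probe sets of PKP2, TJP3 and CDH1 below.

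The basal keratins did not pass the test at either time. KRT5 measured 12.31 and 12.91 in NC and 12.59 and 12.69 in CNT glands at 24 h, a difference of 0.03 (SE 0.22), and at 48 h the difference was -0.04 (SE 0.70). The larger error at 48 h went with the cow, as described further on. KRT14, the filament partner of KRT5, measured 6.58 and 8.29 in NC and 7.01 and 7.40 in CNT glands at 24 h. At 48 h its NC glands measured 6.62, 6.89 and 6.68 and its CNT glands 6.74, 9.66 and 6.77, so that the difference of 0.99 (SE 0.78, adjusted p = 0.455) came from the CNT gland of cow 2.

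KRT15, a keratin of basal progenitor cells, had the largest difference of the members at 24 h but also a wide spread between cows. The NC glands measured 9.69 and 8.30 and the CNT glands 7.45 and 7.52, a log2 difference of -1.51 (SE 0.61, adjusted p = 0.220). With cow as a fixed block in the fit it passed the test (adjusted p = 0.0387). A random block gave fewer calls in this comparison than a fixed one. Its CF glands measured 8.06 and 7.38 and its CFPD glands 8.61 and 7.03, and at 48 h the difference was 0.21 (SE 0.80).

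KRT17, an activation keratin, lay lower in CNT glands at 24 h without passing the test. NC glands measured 10.63 and 10.27 and CNT glands 9.54 and 9.92, a difference of -0.72 (SE 0.30, adjusted p = 0.240), and at 48 h the difference was -0.59 (SE 0.53). KRT10, a keratin of differentiating epidermis, measured 11.67 and 11.55 in NC glands at 24 h and 10.16 and 10.95 in CNT glands. Both CNT glands lay below the other glands of that time, and the difference was -1.06 (SE 0.26, adjusted p = 0.0782), or adjusted p = 0.0265 with cow as a fixed block. The difference at 48 h was -0.47 (SE 0.41, adjusted p = 0.500).

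**Figure D2:**
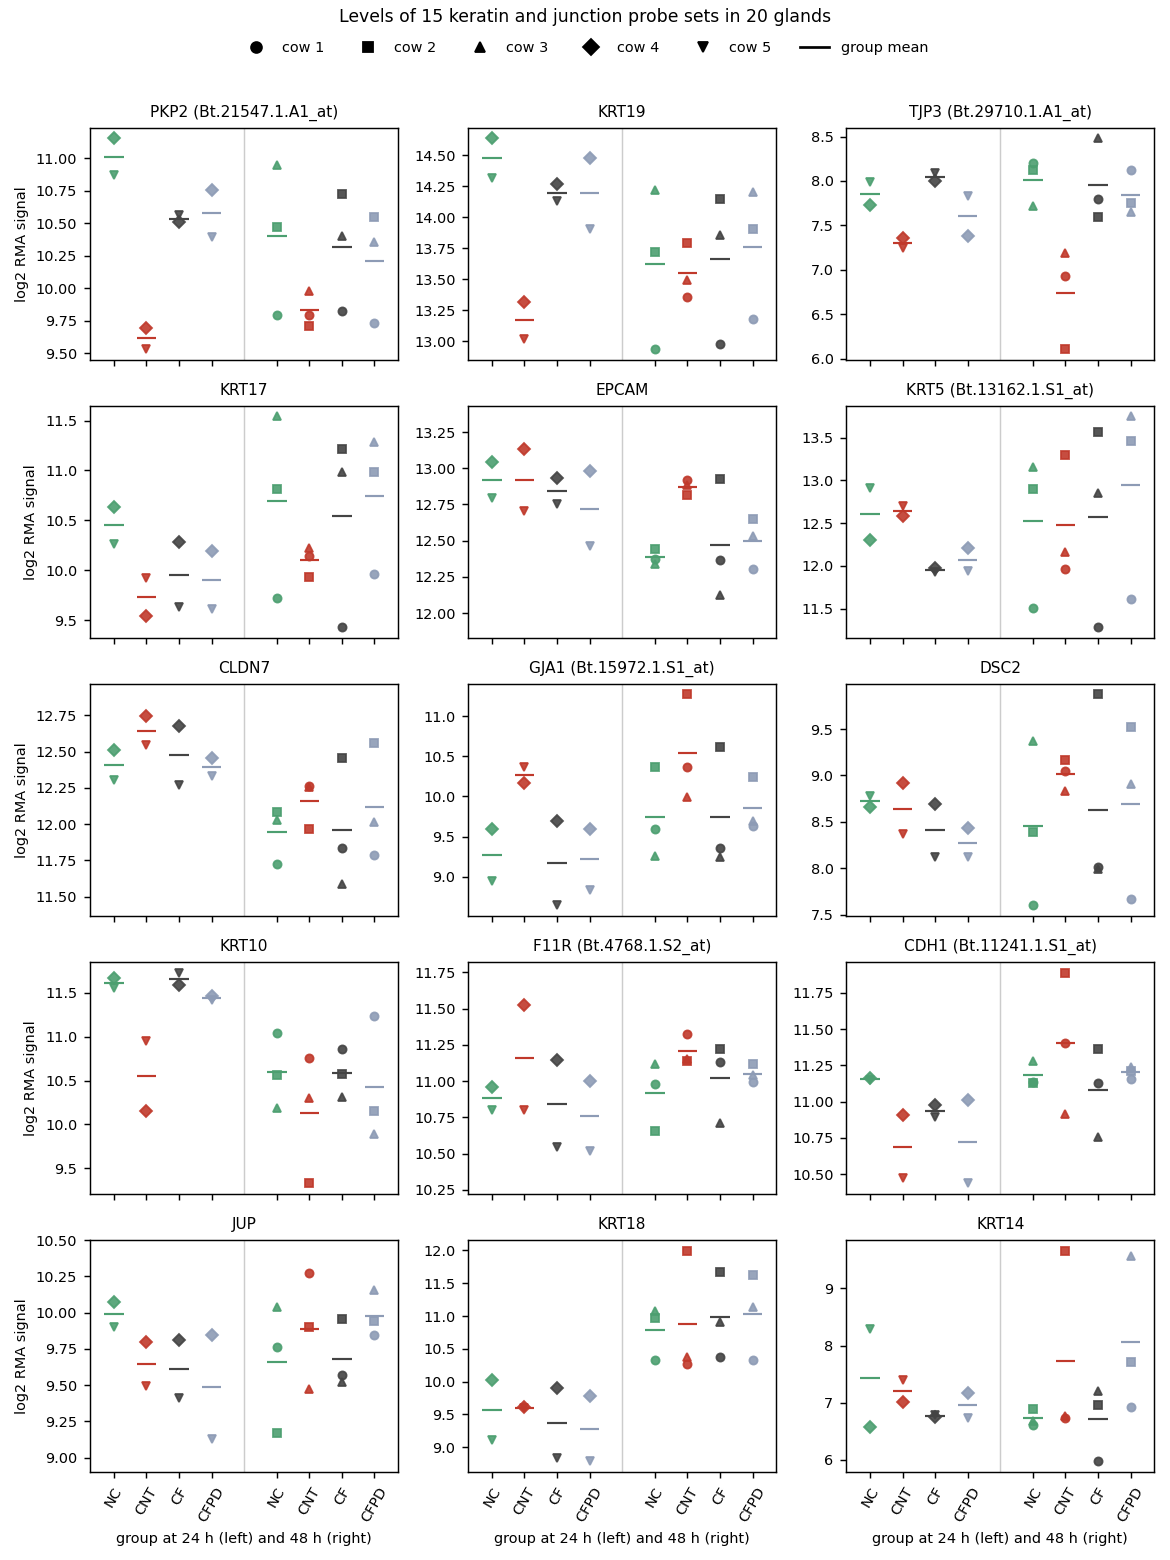
Log2 RMA signal of 15 keratin and junction probe sets in the 20 glands, by group at 24 h (left of the line) and 48 h (right). Symbols mark the cow and horizontal lines the group mean; both CNT glands at 24 h lie lowest for KRT19, PKP2 and KRT10, and the 3 CNT glands at 48 h lie lowest for TJP3.

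No claudin passed the test. The 9 tested claudin probe sets had log2 differences between -0.83 and 0.24 at 24 h and between -0.53 and 0.49 at 48 h. CLDN7, a claudin of many glandular epithelia, measured 12.51 and 12.31 in NC and 12.75 and 12.54 in CNT glands at 24 h, a difference of 0.24 (SE 0.19, adjusted p = 0.530). At 48 h its NC glands measured 11.72, 12.09 and 12.03 and its CNT glands 12.26, 11.97 and 12.26, a difference of 0.22 (SE 0.25, adjusted p = 0.620). CLDN7 was thus higher in the CNT gland of 4 of 5 cows, by less than the test could separate from the spread.

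CLDN3, a sealing claudin, came nearest to a call. It measured 12.49 and 12.55 in NC and 11.69 and 11.70 in CNT glands at 24 h, with CF glands at 12.38 and 12.05 and CFPD glands at 12.11 and 11.89. The CNT glands lay below the other 6, and the difference was -0.83 (SE 0.17, adjusted p = 0.0582), short of the 2-fold limit as well. The difference at 48 h was -0.34 (SE 0.33, adjusted p = 0.559). CLDN1, another sealing claudin, differed by -0.54 (SE 0.21, adjusted p = 0.213) at 24 h and by 0.25 (SE 0.59) at 48 h.

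TJP3, which links tight junction strands to the actin skeleton, was the only member called at 48 h. One of its probe sets (Bt.29710.1.A1_at) measured 8.21, 8.12 and 7.72 in the NC glands of cows 1, 2 and 3 and 6.93, 6.10 and 7.19 in the CNT glands. CF glands measured 7.80, 7.60 and 8.48 and CFPD glands 8.12, 7.75 and 7.65, so the 3 CNT glands lay below the other 9. The CNT mean of 6.74 ± 0.57 (SD, n = 3) was 2.42-fold below the NC mean of 8.01 ± 0.26 (SD, n = 3), a log2 difference of -1.27 (SE 0.30, adjusted p = 0.0394).

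At 24 h the same TJP3 probe set measured 7.73 and 7.98 in NC and 7.36 and 7.25 in CNT glands, a difference of -0.55 (SE 0.20, adjusted p = 0.174). A further TJP3 probe set (Bt.8484.1.S1_at) differed by -0.40 (SE 0.18, adjusted p = 0.262) at 24 h and by -0.18 (SE 0.19, adjusted p = 0.573) at 48 h, where the CNT gland of cow 1 was higher than the NC gland. The lower level at 48 h was therefore called in 1 of the 2 tested probe sets of the gene, and another (Bt.29710.1.S1_at) did not pass the filter. The call was lost without the CNT gland of cow 2 (-0.96, adjusted p = 0.102). The same held for any other NC or CNT gland except the CNT gland of cow 3. The call was also lost without the CF gland of cow 1 or the CFPD gland of cow 2 or 3, with adjusted p between 0.0531 and 0.0567. F11R, an immunoglobulin-like adhesion protein of tight junctions, measured 10.96 and 10.80 in NC and 11.52 and 10.80 in CNT glands at 24 h, and its differences were 0.28 (SE 0.31) at 24 h and 0.29 (SE 0.17) at 48 h.

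In the desmosome, PKP2 was called lower in CNT than in NC glands at 24 h, while the other plaque proteins were not called. PKP2 (Bt.21547.1.A1_at) measured 11.15 and 10.87 in NC and 9.70 and 9.53 in CNT glands. CF glands measured 10.51 and 10.56 and CFPD glands 10.76 and 10.40, between the NC and the CNT glands. The CNT mean of 9.61 ± 0.12 (SD, n = 2) was 2.63-fold below the NC mean of 11.01 ± 0.20 (SD, n = 2), a log2 difference of -1.40 (SE 0.19, adjusted p = 0.0238).

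The second PKP2 probe set (Bt.21547.2.S1_at) measured 8.18 and 8.51 in NC and 7.31 and 7.05 in CNT glands at 24 h. Its difference of -1.17 (SE 0.32, adjusted p = 0.105) ran the same way and passed the test with cow as a fixed block (adjusted p = 0.0254). At 48 h the probe sets differed by -0.57 (SE 0.32, adjusted p = 0.287) and -0.83 (SE 0.26, adjusted p = 0.0899), and the second was lower in the CNT gland of all 3 cows. The call at 24 h was lost without either NC gland or the CNT gland of cow 4, with adjusted p between 0.0911 and 0.150, and without the glands of cow 4 or cow 5 (adjusted p = 0.724 and 0.315).

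JUP, the plakoglobin of desmosomes and adherens junctions, measured 10.08 and 9.90 in NC and 9.80 and 9.49 in CNT glands at 24 h, a difference of -0.34 (SE 0.27, adjusted p = 0.522). The difference at 48 h was 0.23 (SE 0.25, adjusted p = 0.611). DSC2, the desmocollin of simple epithelia, was the 1 tested desmosomal cadherin and differed by -0.08 (SE 0.26) at 24 h and 0.56 (SE 0.59) at 48 h. Its CNT glands at 48 h lay close together at 9.04, 9.16 and 8.84, while its NC glands spread over 7.60, 8.40 and 9.37.

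Neither surface adhesion gene passed the test. CDH1 measured 11.16 and 11.15 in NC and 10.91 and 10.47 in CNT glands at 24 h, a difference of -0.46 (SE 0.23, adjusted p = 0.314), and at 48 h the difference was 0.22 (SE 0.23, adjusted p = 0.579). The second CDH1 probe set (Bt.13021.1.S1_at) measured 7.16 and 7.06 in NC and 7.16 and 6.40 in CNT glands at 24 h. At 48 h it measured 7.06, 7.02 and 7.14 in NC and 7.25, 7.72 and 7.34 in CNT glands, with no overlap, and was not called. EPCAM, a surface glycoprotein of epithelial cells, measured 13.05 and 12.80 in NC and 13.13 and 12.70 in CNT glands at 24 h, where the means were equal to within 0.01. At 48 h its NC glands measured 12.37, 12.45 and 12.34 and its CNT glands 12.92, 12.81 and 12.89. Each CNT gland was higher than each NC gland at 48 h, but the difference of 0.49 (SE 0.19, adjusted p = 0.150) did not pass the test.

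Of the connexins, GJA1 (connexin 43) had the largest difference and the direction was upward. It measured 9.59 and 8.95 in NC and 10.16 and 10.37 in CNT glands at 24 h, a difference of 0.99 (SE 0.41, adjusted p = 0.235). At 48 h NC glands measured 9.59, 10.36 and 9.26 and CNT glands 10.36, 11.27 and 9.99, a difference of 0.80 (SE 0.43, adjusted p = 0.273). The CNT gland was higher than the NC gland in all 5 cows, and the difference passed the test at neither time, with or without cow as a block. The other tested connexins differed by -0.44 to -0.13 at 24 h and by -0.43 to 0.45 at 48 h.

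Neither treatment gave a called member against CNT glands at 24 h or 48 h. Over all probe sets, 2.14% were called for CF and 1.4% for CFPD at 24 h, and 1.64% and 1.21% at 48 h. At an unadjusted p under 0.05, 8 of 35 members passed for CF and 6 for CFPD at 24 h (22.9% and 17.1%, beside 21.4% and 18.5% of all probe sets) and 5 for each at 48 h (14.3%, beside 20.9% and 18.7%).

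The values of treated against CNT glands follow for members described above, and these comparisons share their CNT glands with the one against NC glands. KRT19 was higher than in CNT glands by 1.03 in CF (SE 0.24, adjusted p = 0.0749) and by 1.02 in CFPD glands (adjusted p = 0.0859) at 24 h, in both cows. PKP2 was higher by 0.92 (SE 0.19, adjusted p = 0.0564) and 0.96 (adjusted p = 0.0616) at 24 h. KRT10 was higher by 1.10 (SE 0.26, adjusted p = 0.0753) and 0.89 (adjusted p = 0.137), and GJA1 lower, with differences of -1.09 (SE 0.41, adjusted p = 0.192) and -1.05 (adjusted p = 0.240). TJP3 (Bt.29710.1.A1_at) was higher at 48 h by 1.22 (SE 0.30, adjusted p = 0.0621) in CF and by 1.10 (adjusted p = 0.100) in CFPD glands, in all 3 cows. None of these reached the threshold.

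With cow as a fixed block several of these differences did pass it. For CF against CNT glands at 24 h these were KRT19 (adjusted p = 0.00825), KRT10 (adjusted p = 0.0236) and GJA1 (adjusted p = 0.0430), and for CFPD against CNT glands KRT19 (adjusted p = 0.00970). At 48 h TJP3 passed for CF (adjusted p = 0.0246) and for CFPD (adjusted p = 0.0402). As a random block the cow gave fewer calls for CF against CNT glands at 24 h. With both treatment labels exchanged in cows 2 and 5 and no block, PKP2 passed for CFPD at 24 h (1.05, adjusted p = 0.0349) and TJP3 for CF at 48 h (1.27, adjusted p = 0.0486). With CF and CFPD glands taken as 1 treated group, which does not depend on these labels, KRT19 was higher than in CNT glands by 1.03 at 24 h (adjusted p = 0.0158) and TJP3 by 1.16 at 48 h (adjusted p = 0.0179). The CF and CFPD glands of a cow counted as separate replicates in that group, so its smaller p-values rest on no further cows.

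**Figure D3:**
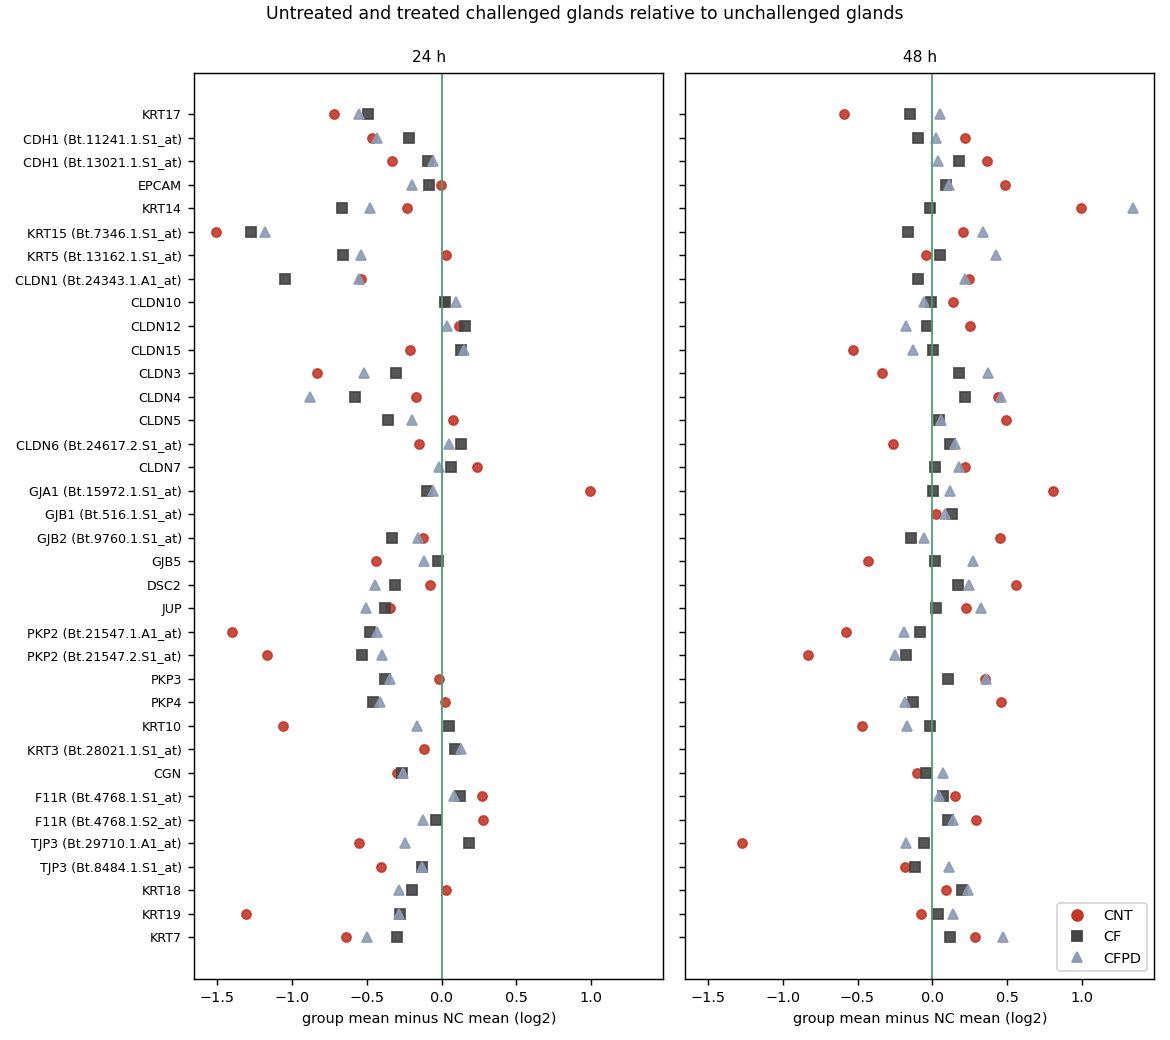
Mean log2 signal of CNT, CF and CFPD glands minus the NC mean for the 36 tested keratin and junction probe sets at 24 h (left) and 48 h (right). CF and CFPD glands lie nearer to the NC line than CNT glands for KRT19, PKP2, KRT10 and GJA1 at 24 h and for TJP3 (Bt.29710.1.A1_at) at 48 h, while KRT14 and the basal KRT5 do not follow this order.

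Treated and NC glands gave no call, among the members or among all probe sets. At an unadjusted p under 0.05, 3 of 35 members differed from NC glands at 24 h for each treatment (8.57%, beside 0.815% of all probe sets for CF and 1.98% for CFPD), and 0 at 48 h (beside 0.631% and 0.331%). For CF these were KRT5 (-0.66, SE 0.22), CLDN1 (-1.05, SE 0.21) and PKP2 (-0.48, SE 0.19), and for CFPD KRT5 (-0.54), CLDN1 (-0.55) and CLDN3 (-0.52, SE 0.17). The median of the members was -0.26 for CF and -0.26 for CFPD against NC glands at 24 h, beside -0.02 and -0.01 over all probe sets, with 26 and 29 of 35 negative. The untreated CNT glands leaned the same way against NC glands, with a median of -0.21 and 25 of 35 negative. Against CNT glands the medians were 0.04 for CF and 0.03 for CFPD.

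KRT5 was lower in the treated glands at 24 h but, unlike the members as a whole, not in the CNT glands. The CF glands measured 11.98 and 11.92 and the CFPD glands 12.21 and 11.93, each below the NC glands at 12.31 and 12.91 and the CNT glands at 12.59 and 12.69. The treated glands were rear glands and the NC and CNT glands front glands in every cow, so treatment and position cannot be told apart in this comparison. CFPD and CF glands gave no call and no member at an unadjusted p under 0.05 at either time, beside 67 and 21 probe sets in all. KRT14 at 48 h had the largest difference of the members here, 1.35 (SE 0.78), and its CFPD glands spread over 6.92, 7.71 and 9.57.

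In the 3 cows of 48 h, the median share of variation was larger for the animal than for the group, in these genes and over all probe sets. The sum of squares of each member was split into shares between cows, between groups and left over. At 48 h the median shares of the members were 34.3% for the cow and 22.5% for the group, beside 30.4% and 28.2% over all probe sets. At 24 h they were 27.9% and 51.6%, beside 20.2% and 48.2%, with 2 cows in place of 3. The cow had a larger share than the group at 48 h in 60% of the members, beside 51.8% of all probe sets. These shares are a description, with no test.

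The largest shares of the cow at 48 h were those of KRT5 at 78.6%, KRT18 at 76.8%, KRT19 at 75.0% and GJA1 at 62.6%. KRT5 measured 11.51, 11.96, 11.28 and 11.61 in the NC, CNT, CF and CFPD glands of cow 1. It measured 12.90, 13.29, 13.57 and 13.47 in those of cow 2 and 13.15, 12.16, 12.85 and 13.75 in those of cow 3. The 4 glands of cow 1 were therefore below all glands of the other cows at that time, whatever the group. For KRT19 too, the glands of cow 1 lay lowest in each of the 4 groups, from 12.93 to 13.35. GJA1 had its highest value of each group at 48 h in cow 2, at 10.36, 11.27, 10.62 and 10.25 in NC, CNT, CF and CFPD glands. TJP3 (Bt.29710.1.A1_at) was the opposite case, with 71.2% between groups at 48 h and 7.94% between cows.

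**Figure D4:**
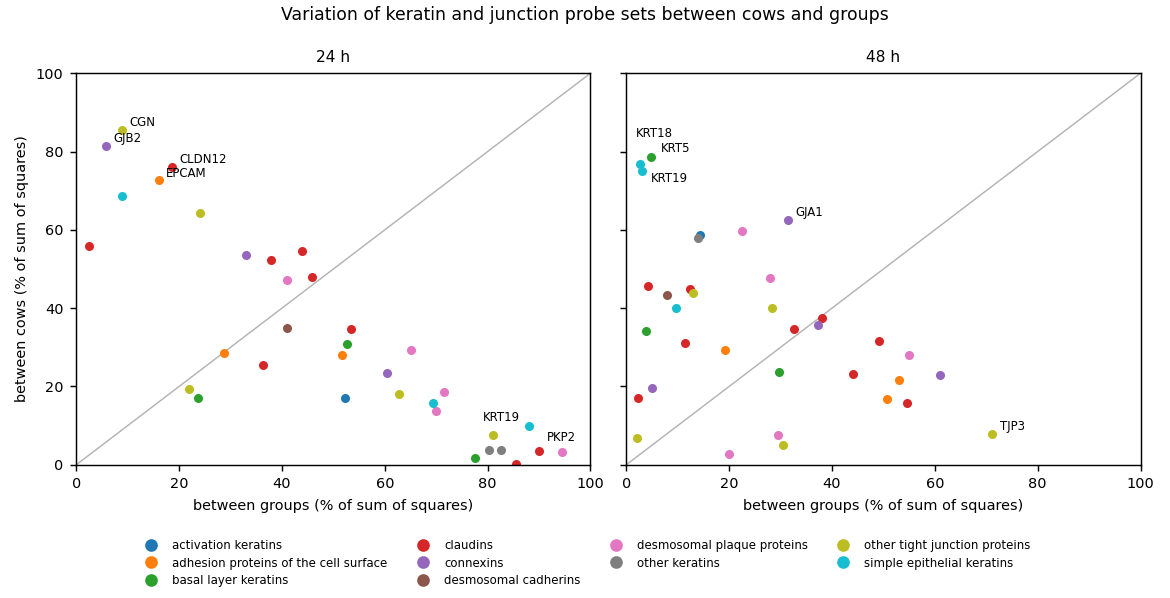
Share of the sum of squares between cows (vertical axis, %) against the share between groups (horizontal axis, %) for each tested keratin and junction probe set at 24 h (left, 2 cows) and 48 h (right, 3 cows). KRT5, KRT18 and KRT19 lie highest between cows at 48 h, while TJP3 has the largest share between groups; the diagonal marks equal shares.

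The CNT gland of cow 2 at 48 h held the highest of the 20 values for 13 of the 79 members, or 16.5%, and the lowest for 24, or 30.4%, beside 17.0% and 22.1% of all probe sets. The widest gap was that of CLDN11, a claudin known from myelin and testis whose probe sets did not pass the filter. Its probe set Bt.4817.1.A1_at measured 9.61 in this gland, 6.21 in the NC gland of the same cow, and 5.27 and 4.59 in the other CNT glands of 48 h. The next highest value was 8.09 in the CNT gland of cow 5 at 24 h, where the NC gland measured 4.88 and the CNT gland of cow 4 measured 5.89. CLDN1 measured 10.00 in the CNT gland of cow 2 and 8.25 in its NC gland, and the other CNT glands of 48 h measured 7.76 and 7.11. KRT15 measured 10.56 beside 7.97 in the NC gland of the cow, KRT14 9.66 beside 6.89, CLDN10 8.60 beside 7.40 and KRT18 12.00 beside 10.97. The CNT glands of cows 1 and 3 each lay below the NC gland of their own cow for CLDN1, KRT15, CLDN10 and KRT18. Without the CNT gland of cow 2, no member was called at 48 h. The CF gland of cow 3 also stood out, with the highest value for 15 of 79 members, or 19.0%, beside 11.1% of all probe sets.

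**Figure D5:**
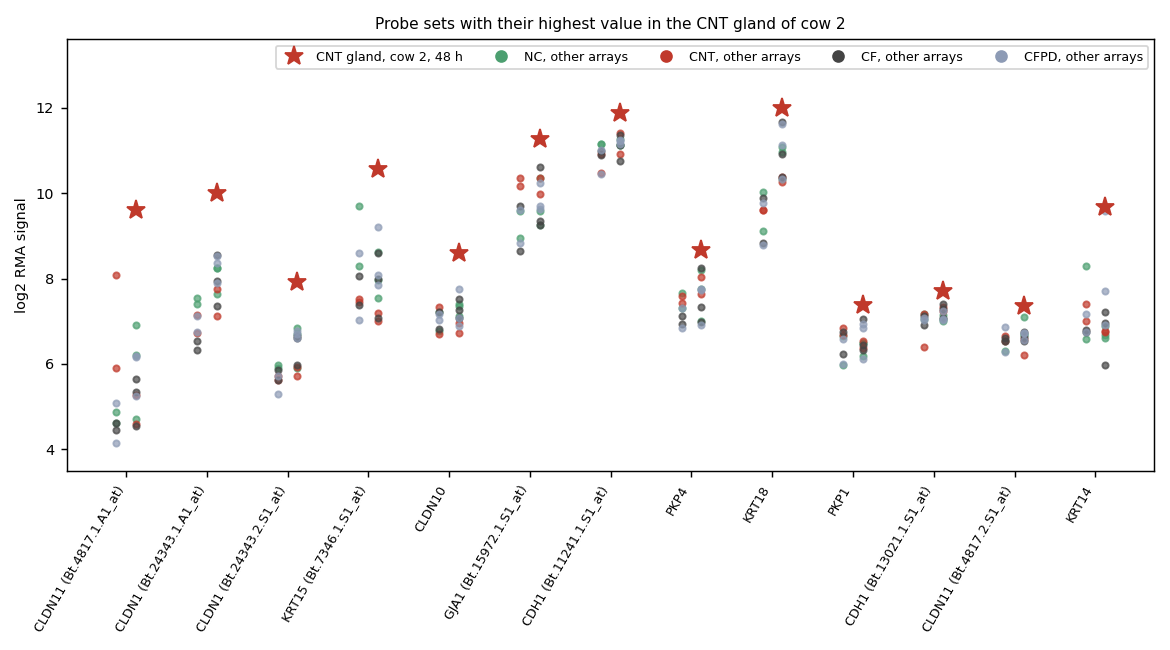
Log2 RMA signal of the 13 member probe sets that had their highest value in the CNT gland of cow 2 at 48 h (star), ordered by the gap to the next highest array. The other 19 arrays are points coloured by group, at 24 h on the left and at 48 h on the right of each label; the gap is 1.53 for CLDN11 and 0.09 for KRT14.

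No gene of the lists of related genes outside the members was called in CNT against NC glands, though single genes differed by as much as the called members. Of other tight junction and polarity genes, 11 were tested and 0 called in CNT against NC glands, with medians of -0.14 at 24 h and 0.09 at 48 h and differences from -0.41 to 1.38 and from -0.29 to 0.95. Of adherens junction genes, 10 were tested at 24 h and 9 at 48 h, with 0 called, medians of 0.06 and 0.16 and differences from -1.63 to 0.65 and from -0.34 to 0.71. The lowest of these was that of CDH2, N-cadherin, at 24 h (-1.63, SE 0.74, adjusted p = 0.267), named after its values were seen. Of hemidesmosome and cornified envelope genes, 3 and 4 were tested with 0 called, medians of -0.10 and 0.39 and differences from -0.44 to 0.16 and from 0.11 to 0.72. Of 15 epithelial regulators and surface genes 0 were called, with medians of 0.00 and 0.19 and differences from -0.58 to 0.99 and from -0.59 to 0.73. All medians stand beside -0.0056 and 0.13 over all probe sets.

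Markers of other cell types did move with the challenge, and their part in the differences above was not tested. All 4 tested neutrophil markers rose with the challenge at 24 h and 48 h, with median log2 differences of 4.85 and 4.00. The summed neutrophil signal of 5 markers lay between 9.53 and 10.28 in NC and between 13.43 and 15.32 in CNT glands at 24 h, and between 8.99 and 10.13 and between 12.91 and 14.37 at 48 h. Of 5 markers shared by leukocytes, 0 were called at 24 h and 2 at 48 h, with medians of 1.99 and 1.25. Their summed signal was 10.54 to 10.88 in NC and 11.60 to 13.42 in CNT glands at 24 h, and 11.03 to 11.92 and 12.28 to 13.07 at 48 h. In CF and CFPD glands the summed neutrophil signal lay between 9.40 and 10.56 over both times. The summed signal of 6 luminal secretory markers lay below the NC range in CNT glands at both times, at 17.06 to 17.10 in NC and 16.90 to 16.91 in CNT glands at 24 h and at 17.10 to 17.17 and 16.70 to 16.93 at 48 h, and 0 of 5 tested were called. The mean log2 level of the same markers, which gives each gene equal weight, overlapped between the groups, at 12.55 to 12.71 in NC and 12.42 to 12.63 in CNT glands at 24 h and at 12.80 to 12.88 and 12.69 to 12.88 at 48 h. That list holds KRT18 and KRT8, whose probe set did not pass the filter but counts in this mean. KRT8 measured 6.03 and 6.10 in NC and 7.05 and 5.51 in CNT glands at 24 h. At 48 h it measured 5.98, 6.20 and 5.96 in NC and 6.57, 6.52 and 7.54 in CNT glands. The 5 tested markers, without KRT8, had median CNT against NC differences of -0.09 at 24 h (from -0.58 to 0.03) and -0.31 at 48 h (from -0.39 to 0.09).

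Of 7 myoepithelial markers, CNN1, a smooth muscle calponin, was called lower in CNT than in NC glands at 24 h (-1.68, SE 0.31, adjusted p = 0.0419). The summed signal of these markers was 14.30 to 14.35 in NC and 13.72 to 13.90 in CNT glands at 24 h. It was 13.53 to 13.82 in CF and 13.50 to 13.81 in CFPD glands, so all challenged glands of that time lay below the NC glands. At 48 h it was 13.83 to 15.40 in NC, 14.20 to 14.55 in CNT, 13.80 to 15.37 in CF and 13.96 to 15.34 in CFPD glands. That list holds KRT5 and KRT14, neither of which was called. Of 8 milk protein genes, BTN1A1, butyrophilin of the milk fat globule, was called lower in CNT than in NC glands at 24 h (-1.28, SE 0.21, adjusted p = 0.0318). It was called higher in CF and CFPD than in CNT glands (1.31 in each, adjusted p = 0.0312 and 0.0369). Of 7 mesenchymal filament and matrix genes, only FN1, fibronectin, and S100A4 were called, both higher with the challenge at 48 h (1.77, SE 0.35, adjusted p = 0.0212, and 1.96, SE 0.39, adjusted p = 0.0211). FN1 was lower in CF than in CNT glands (-1.64, adjusted p = 0.0378). The list went both ways, with CNT against NC medians of -0.25 at 24 h and 0.89 at 48 h. Its differences ran from -0.39 to 2.13 and from -0.27 to 1.96. No marker of endothelium, fibroblasts or adipocytes was called, and of the listed markers of teat canal and skin only KRT10 had a probe set here.

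The difference between CNT and NC glands was also compared between the times, which compares different cows. No member of 36 was called, and none of 13486 probe sets in all. At an unadjusted p under 0.05, 2 members passed beside 1052 probe sets, or 7.8%. These were KRT19, whose difference was higher at 48 h than at 24 h by 1.23 (SE 0.54, adjusted p = 0.601), and a second CDH1 probe set (Bt.13021.1.S1_at), higher by 0.70 (SE 0.28, adjusted p = 0.574).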

How the data were processed

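RNA of 20 glands was measured on the Affymetrix Bovine Genome Array. The authors deposited log2 values from RMA (package affy, background correction, quantile normalization and summary per probe set); versions are not given in the sources used here. Groups came from the sample labels, with the cow as replicate. Of 24128 probe sets, 112 controls were left out, as were those above their array's median on fewer than 2 arrays at 24 h or 3 at 48 h. The 4 groups of a time were fitted with limma 3.58.1 in R 4.3.3, without the cow, and p-values adjusted by Benjamini-Hochberg over all probe sets tested (residual degrees of freedom 4 and 8). Precision is limited by how few arrays there are. The fits were tested on simulated data.

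Members and gene lists were chosen with earlier results of these data known. Values are given for members that were called, the brightest probe set of each role class, and CDH1, EPCAM, JUP, KRT18, KRT19, KRT5 and KRT14; signals of different probe sets are not compared. Of several probe sets of a gene, the brightest is meant unless another is named, and lists use 1 probe set a gene. Glands are paired because they share a cow: deviations from group means correlated within cows with a mean r of 0.521 at 24 h (lowest 0.332) and 0.448 at 48 h (lowest 0.0624). Alternatives were the cow as a block (fixed or random), a joint fit of all 20 arrays, other filters, prior, centring, quantile normalization, no minimum fold change, exchanged or merged treatment labels, and leaving out each array or cow. The exchange for cows 2 and 5 and the fit without their treated glands were added after the data were seen. Of 54 gene IDs, 53 matched the RefSeq table with the same symbol. No coordinates or sequences are given, since no build or sequence table was used. A result on a gene list in treated glands is not reported here.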

Additional observations from a re-analysis of the deposited data

How the results depend on the processing

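The calls of CNT against NC glands held their direction under every alternative run, but their number did not. Of 2 members called at 24 h and 1 at 48 h, leaving out single arrays or cows left between 0 and 2 at 24 h and between 0 and 1 at 48 h. Leaving them out gave between 0 and 1 call for CF and for CFPD against CNT glands at 24 h, and between 0 and 1 for CF at 48 h. Without cow 4 or 5, the lone array per group at 24 h was assumed to vary like the arrays of 48 h. With cow as a fixed replicate block, calls were 5 for CNT against NC, 3 for CF against CNT and 1 for CFPD against CNT glands at 24 h, and 1 each for CF and CFPD against CNT glands at 48 h. As a random block these 5 comparisons gave 4, 2, 1, 1 and 1, in that order, and the block changed no other count. All 20 arrays in 1 fit gave 1 for CNT against NC at 24 h, and 1 each for CF and CFPD against CNT glands at 48 h. Quantile normalization gave 2 for CF and 1 for CFPD against CNT glands at 24 h. With both treatment labels exchanged in cows 2 and 5, CFPD gave 1 at 24 h and CF gave 1 at 48 h; the exchange of cows 1 and 4, planned under another numbering of the cows, gave 1 for CF at each time. With CF and CFPD as 1 group, both glands of a cow counted separately, treated against CNT glands gave 1 at each time. Without the CF and CFPD glands of cows 2 and 5, CNT against NC gave 1 at 24 h and 0 at 48 h. The cause of these changes was not tested, beyond the smaller number of arrays where some were left out. Other filters, prior, centring and no minimum fold change kept each count within 1.5 times, and no comparison reversed.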
